A study of Mus musculus with 6 samples.

Results

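Clu, Anxa1, Anxa3, Sprr1a, Sprr2a1, Msln and Krt7 are genes that have been used as marks of a fetal-like state of the injured gut epithelium. All 7 were found among the 20533 genes measured in the distal colon by RNA sequencing, by matching the Ensembl identifiers to these symbols in GENCODE M21. The mice were wild type, of strain C57BL/6, male and 7 weeks old, and were treated for 7 days. There were 2 libraries in each of 3 groups: 2% DSS (dextran sulfate sodium, which damages the lining of the colon) plus Montmorillonite powder (an adsorbent clay), 2% DSS alone, and water. The values are normalised read counts, that is, reads divided by 1 factor per library. Whether a group's libraries are of different mice is not in the labels, so that every p-value measures the spread between these libraries, which may be technical.

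When the colonic epithelium is lost, the surface is covered again by epithelial cells that take up genes of the fetal gut and lose genes of the adult crypt stem cell. In mouse this switch has been tied to YAP, a coactivator that binds TEAD transcription factors and that the Hippo kinases restrain. Clu marks epithelial cells that restore crypts after damage in mouse intestine, and Anxa1, Sprr1a, Msln and Krt7 are among the genes that damaged or fetal epithelium expresses. Several of the 7 are also genes of other tissues. Sprr1a and Krt7 are expressed in stratified or ductal epithelia, Msln in mesothelium, Anxa1 in leukocytes, and Clu in stromal and follicular dendritic cells.

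The 7 genes did not move as a group. Clu and Msln were far higher in both DSS libraries and in DSS plus montmorillonite replicate 2 than in water. Anxa1, Sprr1a and Krt7 were highest in DSS replicate 2 and DSS plus montmorillonite replicate 2 and much nearer to water in the replicate 1 libraries of both groups. Anxa3 and Sprr2a1 were lowest in the DSS libraries.

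**Figure D1:**
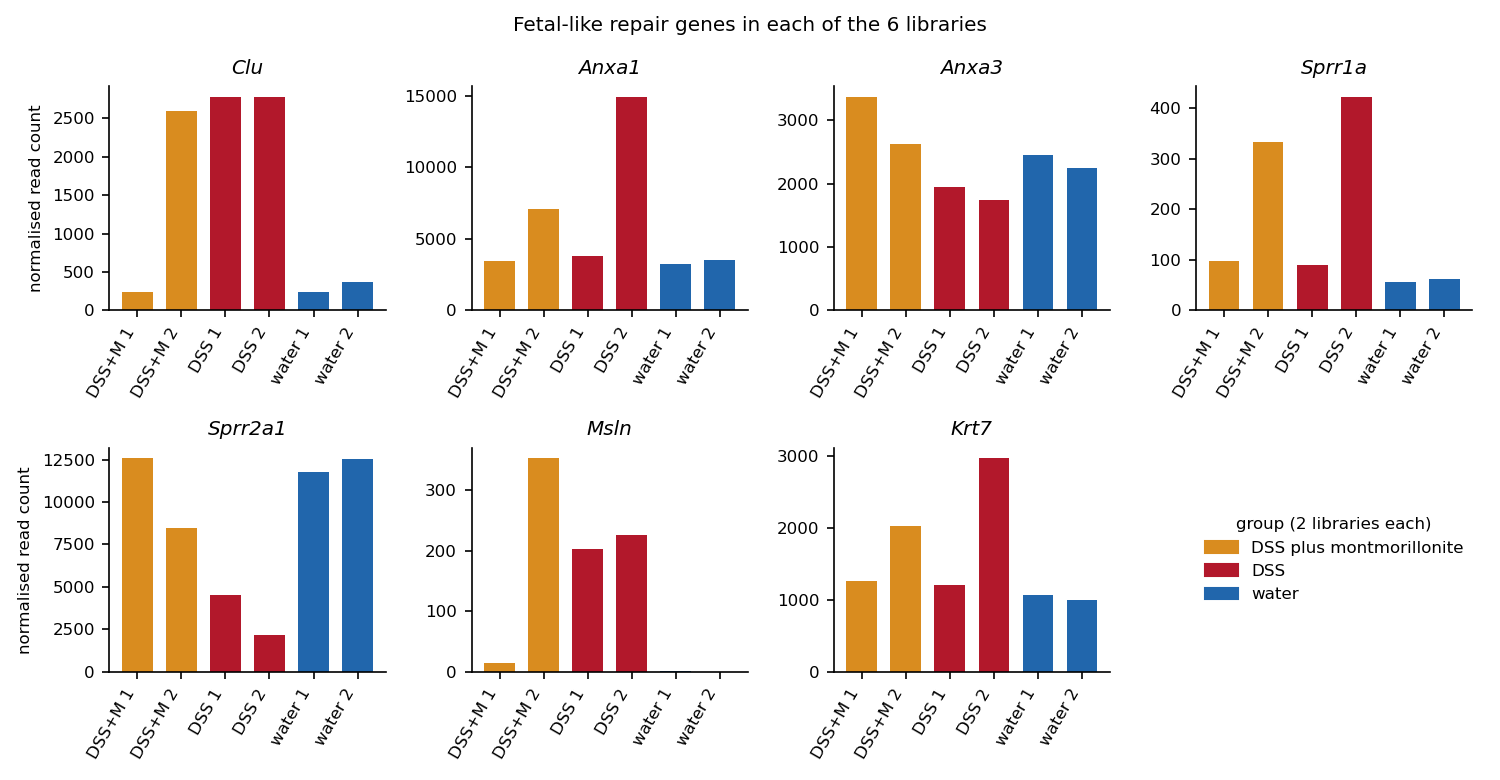
Normalised read count (vertical axes, each from 0) of the 7 fetal-like repair genes in each of the 6 libraries (bars, coloured by group; DSS+M is DSS plus montmorillonite). Clu and Msln are low in DSS plus montmorillonite replicate 1 and in water, Anxa1, Sprr1a and Krt7 peak in DSS replicate 2, and Anxa3 and Sprr2a1 are lowest in the DSS libraries.

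Marker genes of other tissues differed widely between libraries of the same group. The recovered reads ranged from 3741494 to 21481594 per library, and 1 read was worth a value of 0.335 to 2.27. Genes of stratified squamous epithelium, such as Krt5 and Krt14, summed to 216 and 8899 in DSS plus montmorillonite replicates 1 and 2, to 646 and 43966 in DSS replicates 1 and 2, and to 108 and 612 in water. Krt5 was at 36.0 and 2469 in DSS plus montmorillonite, at 7.37 and 12952 in DSS, and at 0 and 47.8 in water, and 7 of the 17 squamous genes were at 0 in water replicate 1. Skeletal muscle genes summed to 4055 in DSS plus montmorillonite replicate 1 and to 2976 in DSS replicate 2, against 93.8 to 622 in the other 4 libraries. Of 11 general epithelial genes all had reads in every library, among them Cdx1 and Cdx2, transcription factors of intestinal epithelium. Cdx1 had 2264 and 1087 in DSS plus montmorillonite, 974 and 450 in DSS, and 2639 and 2709 in water. The 11 genes summed to 167495 and 89568 in DSS plus montmorillonite, 65671 and 45181 in DSS, and 153238 and 161490 in water. In bulk tissue, fewer cells of a type and less RNA per cell cannot be told apart.

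**Figure D2:**
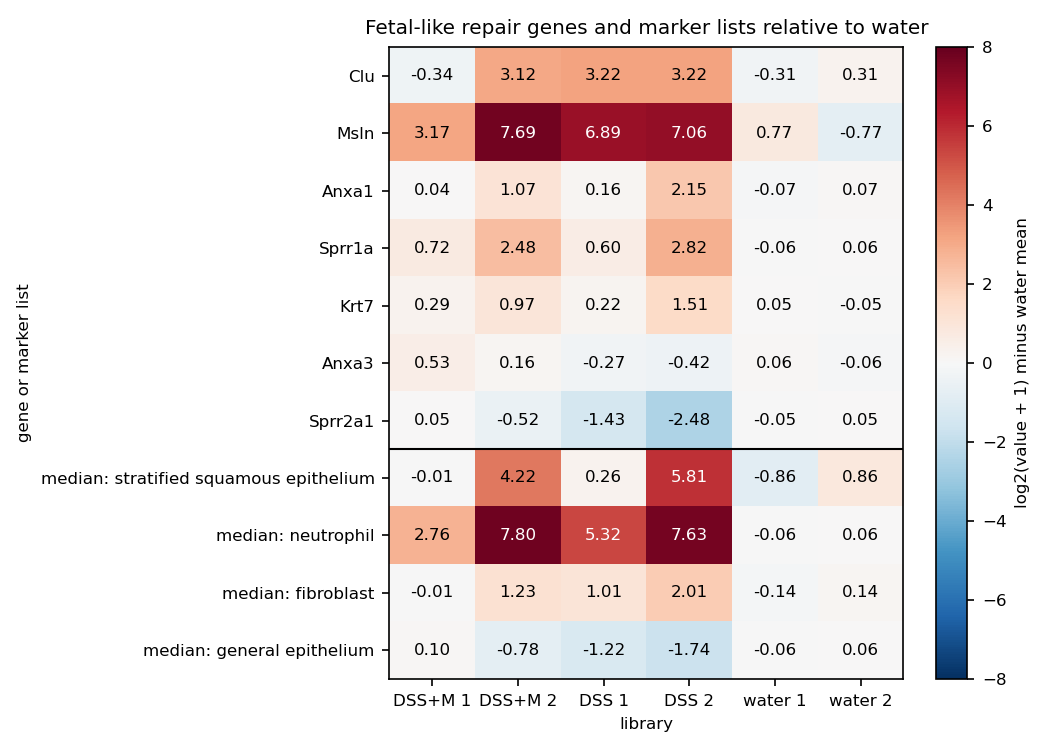
Log2(value + 1) of each library minus the mean over the water libraries, for the 7 genes (upper rows) and as the median over each marker list (lower rows); columns are libraries and colour gives the same number as the text in each cell. The squamous list stands at 4.22 in DSS plus montmorillonite replicate 2 and 5.81 in DSS replicate 2, the columns in which Anxa1, Sprr1a and Krt7 are highest. The neutrophil list is also highest in these columns, at 7.80 and 7.63.

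Differences were tested with limma on log2(value + 1) over 20307 genes, with Benjamini-Hochberg adjustment over all of them and a threshold of 0.05. In the fit of all 6 libraries, which was set as the test, no gene passed in any comparison (0% of genes called, edgeR likewise 0). At an unadjusted p under 0.05 that fit had 4662 genes for DSS against water, 2058 for DSS plus montmorillonite against water and 2291 for DSS plus montmorillonite against DSS. In a fit of only the 4 DSS and water libraries limma called 15.1% of genes, 7.9% higher and 7.18% lower, and edgeR on recovered reads 14.7%, 8.2% higher and 6.53% lower. The verbs rose and fell are used below only for that fit of 4 libraries in DSS against water. No gene passed in it when either DSS library was left out. Where a group is left with 1 library, that library is assumed to vary like the others. Of the 7 genes 2 rose in it, Clu and Msln, 1 fell, Sprr2a1, and 4 did not pass. The median log2 fold change of the 7 genes was 1.16, against 0.10 over all genes tested. All 7 were without overlap between DSS and water, 5 of them higher and 2 lower, where 33.9% of all genes were higher and 28.5% lower in this way.

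Clu encodes clusterin, a secreted chaperone. Its normalised read count was 234 and 2591 in DSS plus montmorillonite, 2780 and 2772 in DSS, and 239 and 368 in water. The DSS libraries were alike and well above both water libraries, while DSS plus montmorillonite held 1 library at each level. Clu (ENSMUSG00000022037.15, GRCm38 chromosome 14, 65968483 to 65981547, plus strand) rose 9.33-fold in DSS against water, a log2 fold change of 3.22 ± 0.24 SE (limma, 4 libraries, adjusted p = 0.00362). In the fit of 6 libraries the SE was 0.99 and the limma adjusted p = 0.154. With either water library left out of the fit of 4 it still passed (limma adjusted p = 0.0316 and 0.0191). Against water, DSS plus montmorillonite had a log2 fold change of 1.39 ± 0.99 SE (limma, 6 libraries, adjusted p = 0.623). It was -0.34 without DSS plus montmorillonite replicate 2 and 3.12 without replicate 1, where it passed with the DSS libraries in the fit (limma, 5 libraries, adjusted p = 0.0141) and not without them (3 libraries, 0.117). Against DSS it was -1.83 ± 0.99 SE (limma, 6 libraries, adjusted p = 0.534), -3.56 without replicate 2 (limma, 5 libraries, adjusted p = 0.0105; 3 libraries, 0.0307) and -0.10 without replicate 1 of DSS plus montmorillonite. Follicular dendritic cell genes summed to 83.4 and 4559 in DSS plus montmorillonite, 2644 and 1849 in DSS, and 124 and 164 in water, with none of 4 at 0. Fibroblast genes summed to 12449 and 38342 in DSS plus montmorillonite, 38399 and 63065 in DSS, and 12099 and 14578 in water, with none of 8 at 0. Of the follicular dendritic cell sum in DSS plus montmorillonite replicate 2, Cxcl13 alone gave 4246. In that library and in DSS replicates 1 and 2, Cr2 had 104, 719 and 135, Fcer2a 54.5, 435 and 76.2, and Madcam1 154, 149 and 259. The fibroblast sum also differed between the DSS libraries, where Clu was alike. Both sums were above water in the libraries in which Clu was high, though single genes varied. The part of these cells in the Clu level was not tested.

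Msln encodes mesothelin, a membrane-anchored glycoprotein that binds the mucin Muc16. It had 14.4 and 352 in DSS plus montmorillonite, 202 and 226 in DSS, and 1.92 and 0 in water. Water held 2 reads in all, against 1076 reads in DSS and 204 reads in DSS plus montmorillonite. The ratio of pooled reads was 157 in DSS against water, with an exact 95% counting interval of 43.4 to 1300, and 121 in DSS plus montmorillonite against water (33.2 to 1009). These intervals cover counting error only. Msln (ENSMUSG00000063011.6, chromosome 17, 25748613 to 25754378, minus strand) rose in DSS against water (limma, 4 libraries, adjusted p = 0.00607). In the fit of 6 libraries the limma adjusted p = 0.141. Both DSS plus montmorillonite libraries were above water, and the limma adjusted p = 0.401 with 6 libraries and 0.629 with 4. That comparison passed without DSS plus montmorillonite replicate 1 (limma, 5 libraries, adjusted p = 0.0142; not with 3 libraries, 0.123) and with DESeq2 (adjusted p = 0.00120). Set against DSS, DSS plus montmorillonite had a log2 fold change of -1.54 ± 1.39 SE, -3.80 without replicate 2 (limma, 5 libraries, adjusted p = 0.0395; 3 libraries, 0.0368) and 0.72 without replicate 1. The sum of 9 other mesothelial genes was 89.2 and 99.9 in DSS plus montmorillonite, 105 and 200 in DSS, and 64.3 and 45.5 in water. Of these 9, 7 were above water in both DSS libraries and 2 below (33.9% and 28.5% of all genes). In DSS against water 1 rose (7.9% of all genes), and 4 were at 0 in each water library. Upk3b, the mesothelial gene that rose, had 17.3 and 1.82 in DSS plus montmorillonite, 6.37 and 16.3 in DSS, and 0 in both water libraries. Rspo1, a Wnt agonist in the same list, had 7.19 and 43.6 in DSS plus montmorillonite, 26.5 and 31.2 in DSS, and 7.68 and 2.27 in water. Its highest and its lowest DSS-treated libraries were those of Msln. Upk3b was lowest where Msln was highest, at 1.82, which is the value of 1 read in that library. These orders thus rest on few reads. Rspo1, Bnc1, Wt1 and Muc16 are named here though they did not pass. Bnc1, a transcription factor also of squamous epithelium, had 0 and 21.8 in DSS plus montmorillonite, 2.01 and 75.3 in DSS, and 0 in both water libraries. Wt1 had at most 4.31 in any library and was at 0 in water. Muc16 had 14.4 and 1.82 in DSS plus montmorillonite, 8.04 and 3.84 in DSS, and 12.5 and 18.2 in water. The part of mesothelial cells in the Msln level was not tested.

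Anxa1 encodes annexin A1, a calcium-dependent phospholipid-binding protein that limits leukocyte recruitment. It had 3453 and 7066 in DSS plus montmorillonite, 3765 and 14925 in DSS, and 3211 and 3516 in water. A single library, DSS replicate 2, was 3.96 times its partner. Anxa1 (ENSMUSG00000024659.14, chromosome 19, 20373428 to 20390944, minus strand) had a log2 fold change of 1.16 ± 0.65 SE in DSS against water (limma, 6 libraries, adjusted p = 0.328; 4 libraries, 0.243). This was 0.16 without DSS replicate 2 and 2.15 without DSS replicate 1. For DSS plus montmorillonite against water it was 0.56 ± 0.65 SE (limma adjusted p = 0.751). For DSS plus montmorillonite against DSS it was -0.60 ± 0.65 SE (limma adjusted p = 0.746) and 0.39 without DSS replicate 2.

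Krt7 encodes keratin 7, a type II keratin of simple and ductal epithelia. It had 1271 and 2035 in DSS plus montmorillonite, 1217 and 2976 in DSS, and 1076 and 1007 in water. All 4 DSS-treated libraries were above both water libraries, by little in the replicate 1 libraries. Krt7 (ENSMUSG00000023039.16, chromosome 15, 101411043 to 101430313, plus strand) had a log2 fold change of 0.87 ± 0.44 SE in DSS against water (limma, 6 libraries, adjusted p = 0.287; 4 libraries, 0.201), and 0.22 without DSS replicate 2. It was 0.63 ± 0.44 SE in DSS plus montmorillonite against water (limma adjusted p = 0.621) and -0.24 ± 0.44 SE in DSS plus montmorillonite against DSS (limma adjusted p = 0.856), where it turned to 0.40 without DSS replicate 2.

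Sprr1a encodes a small proline-rich protein, a precursor of the cornified envelope of squamous cells. It had 97.8 and 334 in DSS plus montmorillonite, 90.1 and 423 in DSS, and 56.6 and 61.4 in water. The 4 DSS-treated libraries were again all above water, and the replicate 2 libraries were 3.42 and 4.70 times their partners. Sprr1a (ENSMUSG00000050359.7, chromosome 3, 92483952 to 92485895, minus strand) had a log2 fold change of 1.71 ± 0.83 SE in DSS against water (limma, 6 libraries, adjusted p = 0.269; 4 libraries, 0.152), and 0.60 without DSS replicate 2. It was 1.60 ± 0.83 SE in DSS plus montmorillonite against water (limma adjusted p = 0.535) and -0.11 ± 0.83 SE in DSS plus montmorillonite against DSS (limma adjusted p = 0.968), with 0.998 without DSS replicate 2. Anxa1, Krt7 and Sprr1a were nearest to one another of all pairs of the 7 genes. The root-mean-square difference of their log2 profiles, each centred on its own mean over the 6 libraries, was 0.28 between Anxa1 and Krt7, 0.48 between Anxa1 and Sprr1a and 0.60 between Sprr1a and Krt7, against 0.72 to 4.01 for the other pairs. The squamous genes were high in the replicate 2 libraries of both DSS-treated groups. Neutrophil genes were highest there too, with sums of 9379 in DSS plus montmorillonite replicate 2 and 14318 in DSS replicate 2. The part of either in these levels was not tested.

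Anxa3, an annexin that is also abundant in neutrophils, had 3369 and 2616 in DSS plus montmorillonite, 1944 and 1746 in DSS, and 2443 and 2238 in water. Its groups did not overlap: DSS was lowest, water intermediate and DSS plus montmorillonite highest. Anxa3 (ENSMUSG00000029484.12, chromosome 5, 96793339 to 96845966, plus strand) had a log2 fold change of -0.34 ± 0.21 SE in DSS against water (limma, 6 libraries, adjusted p = 0.372; 4 libraries, 0.201), 0.34 ± 0.21 SE in DSS plus montmorillonite against water (limma adjusted p = 0.590) and 0.69 ± 0.21 SE in DSS plus montmorillonite against DSS (limma adjusted p = 0.348). Without DSS plus montmorillonite replicate 2 the difference from DSS was 0.87 and passed with the water libraries in the fit (limma, 5 libraries, adjusted p = 0.0485) and not without them (3 libraries, 0.173). Scaling by library size only put the median over all genes tested at 0.33 in DSS against water, where it was 0.10, and the Anxa3 log2 fold change in that comparison at -0.11. Neutrophil genes summed to 197 and 9379 in DSS plus montmorillonite, 3316 and 14318 in DSS, and 55.7 and 88.7 in water. Anxa3 was lowest in DSS replicate 2, where that sum was highest. Anxa3 was above water in DSS plus montmorillonite replicate 2, which had the next highest sum. Ltf alone gave 6611 of the sum in DSS replicate 2 and 1799 in DSS plus montmorillonite replicate 2. By the median log2 above water over the neutrophil list, DSS plus montmorillonite replicate 2 was the higher, at 7.80 against 7.63. The part of neutrophils in the Anxa3 level was not tested.

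Sprr2a1, of the same family as Sprr1a, belongs to a set of near-identical genes on chromosome 3 whose product is secreted in mouse intestine and kills Gram-positive bacteria. Its coding sequence and that of Sprr2a3 are shown because they limit how reads can be given to 1 copy. Capitals mark the 3 of 252 bases at which Sprr2a3 departs from the other copies, and Sprr2a2 is identical to Sprr2a1 over all 252. Sequences are from GENCODE M21 transcripts (GRCm38, plus strand), 5′ to 3′.
Sprr2a1, chr3:92219092-92219343: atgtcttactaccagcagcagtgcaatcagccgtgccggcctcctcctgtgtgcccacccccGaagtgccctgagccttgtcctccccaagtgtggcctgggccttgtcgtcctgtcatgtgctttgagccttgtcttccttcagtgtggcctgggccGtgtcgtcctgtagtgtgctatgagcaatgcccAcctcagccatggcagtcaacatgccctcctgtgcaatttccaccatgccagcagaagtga
Sprr2a3, chr3:92288588-92288839: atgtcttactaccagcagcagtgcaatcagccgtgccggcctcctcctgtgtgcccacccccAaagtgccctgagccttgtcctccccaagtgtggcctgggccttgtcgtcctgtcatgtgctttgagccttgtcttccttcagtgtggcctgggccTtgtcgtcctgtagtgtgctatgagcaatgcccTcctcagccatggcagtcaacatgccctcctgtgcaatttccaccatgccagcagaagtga
Over whole transcript models, 94.7% of the 50-base stretches of Sprr2a1, 96.5% of those of Sprr2a2 and 61.1% of those of Sprr2a3 also occur in another copy. The annotated span of Sprr2a2 also contains most of Sprr2a1, from 92215920 to 92221911. How the authors assigned such reads is not given in the sources used here, so the level of any single copy is uncertain.

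Sprr2a1 had 12581 and 8496 in DSS plus montmorillonite, 4526 and 2180 in DSS, and 11788 and 12549 in water. DSS plus montmorillonite lay at or somewhat below water, and both DSS libraries lay far below. Sprr2a1 (ENSMUSG00000078664.2, chromosome 3, 92215799 to 92221911, plus strand) fell to 0.258 of water in DSS, a log2 fold change of -1.95 ± 0.35 SE (limma, 4 libraries, adjusted p = 0.0208). In the fit of 6 libraries the SE was 0.39 and the limma adjusted p = 0.141, and in the fit of 4 without either water library it did not pass. In DSS plus montmorillonite against DSS the log2 fold change was 1.72 ± 0.39 SE (limma, 6 libraries, adjusted p = 0.292), and 2.00 without DSS plus montmorillonite replicate 2, where it passed with the water libraries in the fit (limma, 5 libraries, adjusted p = 0.0416) and not without them (3 libraries, 0.0972). DESeq2 called it as well (adjusted p = 0.0108). In DSS plus montmorillonite against water it was -0.23 ± 0.39 SE (limma adjusted p = 0.829). The 3 copies summed, a sum chosen after the values were seen, had 36789 and 22195 in DSS plus montmorillonite, 12057 and 8878 in DSS, and 41208 and 35432 in water. The sum fell in DSS against water by a log2 of 1.88 (limma, 4 libraries, adjusted p = 0.00964; 6 libraries, 0.141). The general epithelial genes fell as well, 9 of 11 in DSS against water (7.18% of all genes) with a median log2 fold change of -1.47.

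Of the small proline-rich genes only the Sprr2a copies passed in DSS against water, where 7.9% of all genes rose and 7.18% fell. Of the 14 analysed of 16 listed, 3 fell in DSS against water, none rose and 11 did not pass. The 3 were Sprr2a1, Sprr2a2 (0.256 of water, limma, 4 libraries, adjusted p = 0.0159) and Sprr2a3 (0.288, limma adjusted p = 0.00754). As these copies share most of their 50-base stretches, they are not independent counts. The median log2 fold change of the 14 was 1.31. It includes genes at 0 in both water libraries, such as Sprr2e, Sprr2f, Sprr2g and Sprr2j-ps. Among the DSS libraries these were seen mainly in replicate 2. Sprr2b, named after its values were seen, had 30.2 and 47.2 in DSS plus montmorillonite, 16.4 and 9.59 in DSS, and 17.3 and 27.3 in water, so that it too was lower in both DSS libraries than in water without passing (limma, 4 libraries, adjusted p = 0.397). Sprr2d, chosen after its values were seen, had 8.63 and 398 in DSS plus montmorillonite, 0 and 1015 in DSS, and 0 and 4.55 in water. It was high in the replicate 2 libraries in which Sprr1a and the squamous genes were high. Tgm1, a transglutaminase that crosslinks such proteins in squamous cells, was picked likewise and had 2.88 and 251 in DSS plus montmorillonite, 32.8 and 1177 in DSS, and 2.88 and 20.5 in water.

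**Figure D3:**
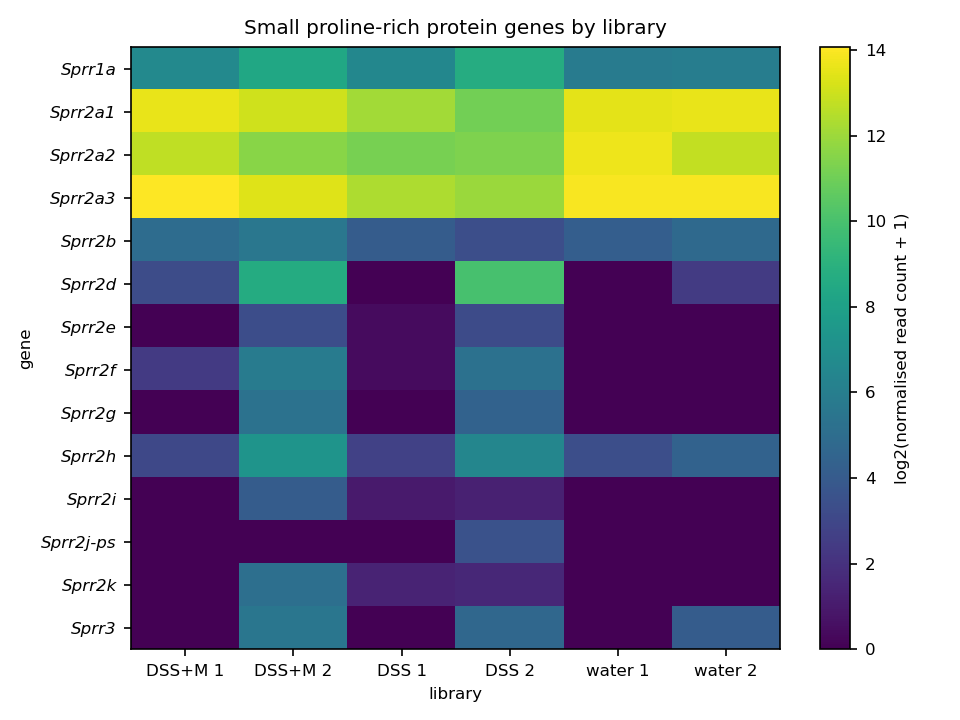
Log2(normalised read count + 1) of the 14 small proline-rich protein genes analysed (rows) in the 6 libraries (columns). Sprr2a1, Sprr2a2 and Sprr2a3 are bright in every library and lower in DSS, while Sprr2d and several others appear mainly in DSS plus montmorillonite replicate 2 and DSS replicate 2.

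The stretches upstream of Sprr1a and Sprr2a1 are shown because these neighbours of 1 family differed in level and in pattern. Of the 7 genes 4 had a promoter window in the RefSeq table (GRCm38.p6): Anxa1, Sprr1a, Sprr2a1 and Krt7. Letters inside annotated exons were left out, and capitals mark TGANTCA, the AP-1 motif, which reads the same on both strands.
Sprr1a, chr3:92485896-92486131, minus strand: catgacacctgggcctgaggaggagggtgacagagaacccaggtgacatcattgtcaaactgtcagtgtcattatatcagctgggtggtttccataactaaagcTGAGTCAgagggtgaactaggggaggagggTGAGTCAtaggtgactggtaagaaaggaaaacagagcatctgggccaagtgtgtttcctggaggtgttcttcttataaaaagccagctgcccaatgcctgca
Sprr2a1, chr3:92215585-92215798, plus strand: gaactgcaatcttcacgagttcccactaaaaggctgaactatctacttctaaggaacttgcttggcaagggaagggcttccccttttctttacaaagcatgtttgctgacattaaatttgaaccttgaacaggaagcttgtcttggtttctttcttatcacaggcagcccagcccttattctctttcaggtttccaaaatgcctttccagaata
Sprr1a held 2 AP-1 matches in the 250 bases before its start, and Anxa1, Sprr2a1 and Krt7 held 0. Of all 32851 windows of that length 6.75% held a match. The TEAD motif GGAATG, searched on both strands, occurred 1 time in the window of Anxa1 and not in those of Sprr1a, Sprr2a1 or Krt7. It occurred in 12.6% of all windows. Matches were sought over whole windows, exon letters included. The Anxa1 window, with its match, lies wholly inside annotated exons of Anxa1. In the Krt7 window the longest stretch outside annotated exons of Krt7 has 82 of the 250 bases. No window of the 4 held both motifs, and a match is only a match of letters.

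Per kilobase of annotated exon, the mean levels in DSS plus montmorillonite ran from Sprr2a1 (3509 per kb) through Anxa1 (1807), Anxa3 (821), Clu (411), Sprr1a (268) and Krt7 (235) to Msln (59.9). In DSS the order was Anxa1 (3210 per kb), Sprr2a1 (1116), Clu (808), Anxa3 (506), Sprr1a (318), Krt7 (297) and Msln (69.9). In water it was Sprr2a1 (4052 per kb), Anxa1 (1155), Anxa3 (642), Krt7 (148), Clu (88.4), Sprr1a (73.2) and Msln (0.313). Neighbours whose libraries overlapped were Anxa3 with Clu, Clu with Sprr1a and Sprr1a with Krt7 in DSS plus montmorillonite. In DSS they were Anxa1 with Sprr2a1, Sprr2a1 with Clu, Anxa3 with Sprr1a and Sprr1a with Krt7, and in water Clu with Sprr1a. The place of Sprr2a1 carries the doubt about its copies. All places also depend on the annotated exon length used, which was 7049 bases for Krt7, 3437 for Clu and 806 for Sprr1a.

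The order of the groups depended on what a gene was set against. The ratio of a gene to the geometric mean of the 11 general epithelial genes was computed after the values were seen and is given without a test. That mean was itself lower in DSS, at 6870 and 3888 in DSS plus montmorillonite, 2837 and 1924 in DSS, and 6002 and 6701 in water, which raises the ratio in DSS for any gene that was less reduced. For Anxa3 this ratio was 0.490 and 0.673 in DSS plus montmorillonite, 0.685 and 0.908 in DSS, and 0.407 and 0.334 in water. All 4 DSS-treated libraries were thus above water, whereas the normalised read count in DSS was below it. For Sprr2a1 it was 1.83 and 2.19 in DSS plus montmorillonite, 1.60 and 1.13 in DSS, and 1.96 and 1.87 in water, so that the distance of DSS from water was smaller than in the read counts. For Anxa1 it was 0.503 and 1.82 in DSS plus montmorillonite, 1.33 and 7.76 in DSS, and 0.535 and 0.525 in water. For Clu it was 0.0341 and 0.666 in DSS plus montmorillonite, 0.980 and 1.44 in DSS, and 0.0398 and 0.0550 in water. For Krt7 it was 0.185 and 0.523 in DSS plus montmorillonite, 0.429 and 1.55 in DSS, and 0.179 and 0.150 in water. Set against the geometric mean of the 8 fibroblast genes, Anxa3 had a ratio of 3.72 and 1.01 in DSS plus montmorillonite, 0.805 and 0.419 in DSS, and 2.89 and 2.15 in water. Krt7 by that measure had 1.40 and 0.782 in DSS plus montmorillonite, 0.504 and 0.714 in DSS, and 1.27 and 0.969 in water. Both were thus below water in DSS against fibroblast genes and above it against epithelial genes. The fibroblast mean was itself higher in DSS, at 2415 and 4166, than in water, at 845 and 1040. This lowers that ratio in DSS for genes less raised. Clu stayed above water in DSS by both measures, at 1.15 and 0.665 against 0.283 and 0.354 by fibroblast genes. Msln did too, at 0.0838 and 0.0543 against 0.00227 and 0. Sprr2a1 was below water by both. Against fibroblast genes, only DSS replicate 1 was below both water libraries for Anxa1 and Sprr1a. Neither the ratio to epithelial genes nor that to fibroblast genes shows which cells the RNA came from.

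**Figure D4:**
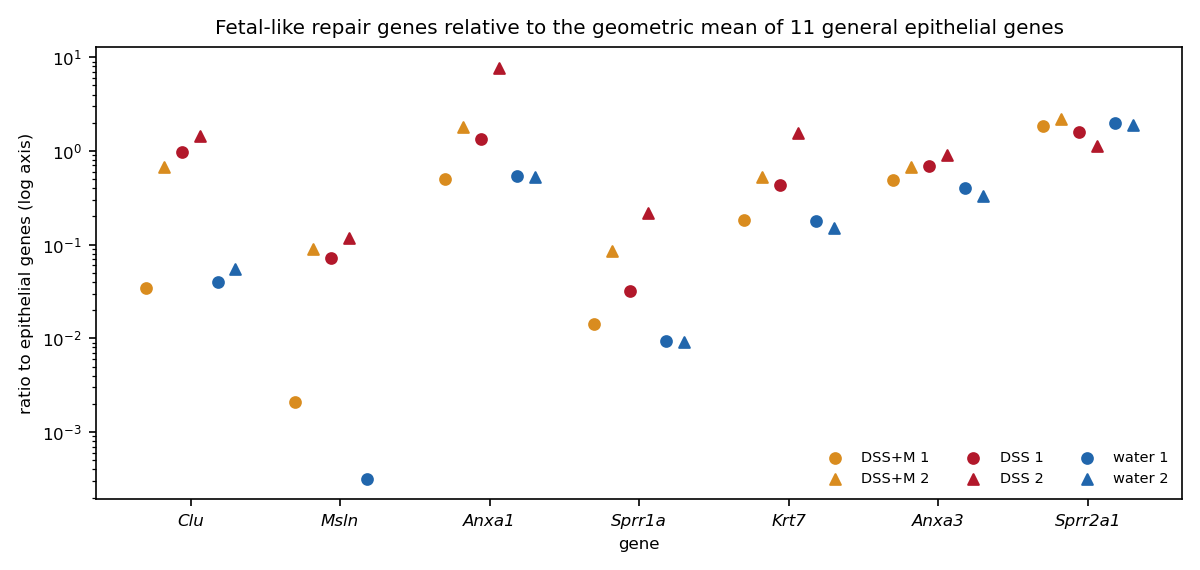
Ratio of each gene's normalised read count to the geometric mean of 11 general epithelial genes of the same library (log axis), for the 7 genes; colour gives the group and shape the replicate, and Msln in water replicate 2, at 0, is not drawn. Anxa3 lies between 0.490 and 0.908 in the DSS-treated libraries and at 0.407 and 0.334 in water.

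**Figure D5:**
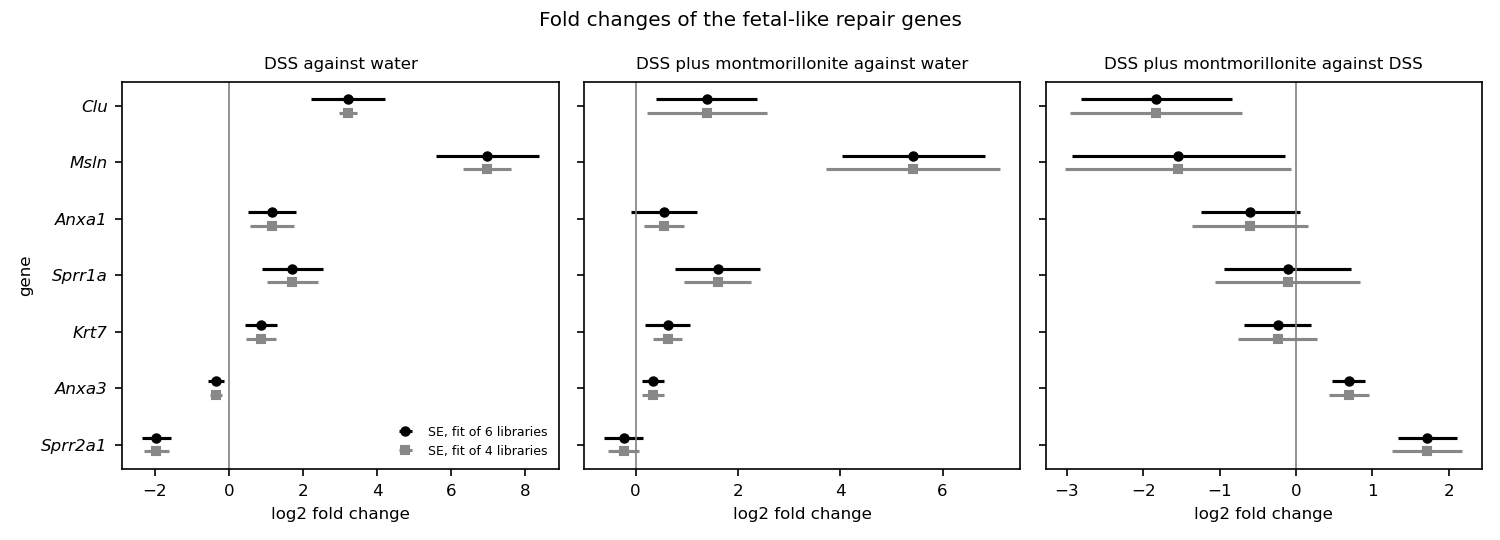
Log2 fold change of the 7 genes in the 3 comparisons, with the SE of the limma fit of 6 libraries (black circles) and of the fit of the 4 libraries compared (grey squares). The SE of Clu in DSS against water is 0.99 in the fit of 6 libraries and 0.24 in the fit of 4.

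In DSS plus montmorillonite the 7 genes gave no call in either fit. Against water 4 of them were higher in both libraries, Anxa3, Sprr1a, Msln and Krt7, where 21.5% of all genes were higher in this way, and none was lower (19.2% of all genes). Against DSS, Anxa3 and Sprr2a1 were higher in both libraries (19.4% of all genes) and Clu was lower in both (20.6% of all genes). The median log2 fold change of the 7 was 0.63 against water and -0.24 against DSS, where that of all genes was 0.06 and -0.07. The comparisons share libraries, and most of these values rest on which of the DSS plus montmorillonite libraries is read: replicate 1 was at water level for Clu and Anxa1, replicate 2 at or above the DSS level for Msln and near it for Clu.

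Of 13 other genes of the fetal and repair programme analysed, 7 rose in DSS against water (7.9% of all genes), 1 fell (7.18%) and 5 did not pass. Their median log2 fold change was 1.24. Gja1, the gap junction protein connexin 43, had 262 and 1915 in DSS plus montmorillonite, 2211 and 4140 in DSS, and 270 and 330 in water (10.1-fold in DSS against water, limma, 4 libraries, adjusted p = 0.00612; 6 libraries, 0.141). Il33, an alarmin of the interleukin-1 family, had 12.9 and 327 in DSS plus montmorillonite, 302 and 514 in DSS, and 18.2 and 15.9 in water (21.9-fold, limma, 4 libraries, adjusted p = 0.00474; 6 libraries, 0.148). Spp1, the secreted phosphoprotein osteopontin, had 2.88 and 65.4 in DSS plus montmorillonite, 88.1 and 70.0 in DSS, and 1.92 and 0 in water, with 2 reads in water (limma, 4 libraries, adjusted p = 0.00962). S100a6, a calcium-binding protein named here as the member that fell, had 14572 and 10295 in DSS plus montmorillonite, 6912 and 7628 in DSS, and 12548 and 13181 in water. Gja1, Il33 and Spp1 are expressed in stromal cells or macrophages as well. Fibroblast genes rose too, 5 of 8 in DSS against water (7.9% of all genes). Macrophage genes were not analysed as a list. The part of these cells in the levels was not tested.

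Of 22 YAP and TEAD target genes, 7 rose in DSS against water (7.9% of all genes), 1 fell (7.18%) and 14 did not pass. Their median log2 fold change was 0.83, beside 1.53 for the 8 fibroblast genes. Without overlap between DSS and water, 14 of the 22 were higher and 5 lower (33.9% and 28.5% of all genes). The part of fibroblasts in these levels was not tested. Ccdc80, a secreted matrix protein, rose 3.29-fold (limma, 4 libraries, adjusted p = 0.00913; 6 libraries, 0.141) and Ptpn14, a phosphatase that binds YAP, 3.49-fold (limma, 4 libraries, adjusted p = 0.0202). Ccn1, a matricellular protein and common readout of YAP activity, had 151 and 136 in DSS plus montmorillonite, 154 and 210 in DSS, and 25.9 and 70.5 in water (4.12-fold in DSS against water, limma, 4 libraries, adjusted p = 0.0483). Fjx1, which is related to the fly growth regulator four-jointed, had 18.7 and 29.1 in DSS plus montmorillonite, 35.5 and 116 in DSS, and 0.960 and 0 in water, from 1 read in water (limma, 4 libraries, adjusted p = 0.0122). Of 14 Hippo pathway components 3 rose (7.9% of all genes), none fell (7.18%) and 11 did not pass. Their log2 fold changes had a median of 0.43, with 9 positive and 5 negative. Those that rose were Tead4 (9.17-fold, limma, 4 libraries, adjusted p = 0.0142), Tead1 (2.75-fold, adjusted p = 0.0278) and Wwtr1, the coactivator TAZ (2.61-fold, adjusted p = 0.0263). Yap1 itself, named after its values were seen, had 695 and 698 in DSS plus montmorillonite, 745 and 932 in DSS, and 608 and 607 in water (limma, 4 libraries, adjusted p = 0.152). In DSS plus montmorillonite no member of these lists passed in the limma fits, where 0% of all genes passed. Against water, 13 of the 22 target genes were higher in both libraries and none lower (21.5% and 19.2% of all genes).

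Of 10 adult crypt stem cell genes, 6 fell in DSS against water (7.18% of all genes), none rose (7.9%) and 4 did not pass. Their median log2 fold change was -1.32, beside the -1.47 of the general epithelial genes. Lgr5, the R-spondin receptor of crypt stem cells, had 0 and 1.82 in DSS plus montmorillonite, 4.02 and 2.88 in DSS, and 63.3 and 43.2 in water (limma, DSS against water, 4 libraries, adjusted p = 0.0134; 6 libraries, 0.141). Axin2, a Wnt target, had 40.3 and 25.4 in DSS plus montmorillonite, 48.9 and 25.9 in DSS, and 155 and 171 in water (limma, 4 libraries, adjusted p = 0.0215). Both were low in all 4 DSS-treated libraries, including DSS plus montmorillonite replicate 1, in which Clu was at the water level. Ascl2, a transcription factor of the same cells, had 1.44 and 0 in DSS plus montmorillonite, 12.7 and 2.88 in DSS, and 49.0 and 59.1 in water (limma, 4 libraries, adjusted p = 0.0449). Sox9, a crypt transcription factor, fell to 0.320 of water in DSS (limma, 4 libraries, adjusted p = 0.0201), with 751 and 124 in DSS plus montmorillonite. Smoc2, named after its values were seen, was the 1 gene of the list that was higher in both DSS libraries than in water, with 84.9 and 343 in DSS plus montmorillonite, 315 and 608 in DSS, and 200 and 227 in water (limma, 4 libraries, adjusted p = 0.0930).

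Among the annexins, of 11 analysed 2 rose and 2 fell in DSS against water (7.9% and 7.18% of all genes), and 7 did not pass. Their median log2 fold change was -0.08. Anxa5 rose 2.37-fold (limma, 4 libraries, adjusted p = 0.0170) and Anxa6 2.01-fold (adjusted p = 0.0351). Anxa7 fell to 0.578 of water (limma, 4 libraries, adjusted p = 0.0309) and Anxa13, an intestinal annexin, to 0.0967 (adjusted p = 0.0242). Of 11 receptors, partners and crosslinking enzymes analysed 3 rose and 3 fell (7.9% and 7.18% of all genes), and 5 did not pass. Those that rose were Fpr1 and Fpr2, formyl peptide receptors through which annexin A1 acts and which neutrophils carry, and Tgm2, tissue transglutaminase. Fpr2 had 7.19 and 169 in DSS plus montmorillonite, 97.8 and 118 in DSS, and 2.88 and 2.27 in water (limma, 4 libraries, adjusted p = 0.00618). Tgm2 had 492 and 3350 in DSS plus montmorillonite, 2337 and 2266 in DSS, and 352 and 507 in water (5.43-fold in DSS against water, limma, 4 libraries, adjusted p = 0.00557). Krt19, a type I keratin that pairs with keratin 7, fell to 0.361 of water (limma, 4 libraries, adjusted p = 0.0148), where Krt7 did not fall.

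The genes nearest to each of the 7 by root-mean-square difference of centred log2 profiles over the 6 libraries were picked from protein-coding genes with a mean of at least 20. For Clu they were Sema7a (0.26), Ednrb (0.29) and Hgf (0.29), for Msln Clec4d (0.23), Chil3 (0.52) and Hp (0.77), and for Anxa1 Pard6g (0.12), Sema3f (0.15) and Podn (0.15). For Sprr1a they were Sorbs3 (0.16), Brinp2 (0.17) and Map3k6 (0.23), and for Krt7 Pld3 (0.10), Nedd4l (0.11) and Gclc (0.12). For Anxa3 they were Coq10a (0.03), D5Ertd579e (0.05) and Fnbp1l (0.06), and for Sprr2a1 Adtrp (0.11), BC030870 (0.13) and Lypd8 (0.15). With 6 libraries in 3 groups, many genes share a profile by group alone, and these values are a description.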

How the data were processed

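RNA was measured by sequencing in 6 libraries of mouse distal colon, 2 per group, taken after 7 days of treatment, with groups and replicate numbers taken from the sample titles. Reads were mapped to mm10 (GRCm38), per the submitters' processing notes; no source used here gives the aligner, the counter or the normalization. The deposited signal values were all whole multiples of 1 value per library (100% within 0.01 read), and the factors equalled DESeq2 size factors of the recovered reads.

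The main test was limma 3.58.1 (R 4.3.3, intensity trend, two-sided) on log2(value + 1), all 6 libraries in 1 fit with 3 residual degrees of freedom, over 20307 genes with a mean of at least 1 (226 removed). All fold changes are on that scale, which understates changes of low genes. Alternatives were fits of the 4 libraries compared, edgeR 4.0.16 and DESeq2 1.42.0 on recovered reads, other pseudocounts, filters and scalings, thinned reads, a replicate block, and leaving out each library. The tests were checked on simulated counts. Members, lists and tests were chosen with earlier results of these data known. Named genes were all 7 members and, per list and comparison, up to 3 genes with the smallest p and 3 with the largest change among those that passed. Of 20533 identifiers 20483 were named from the reference table. Listed genes without an entry were not analysed here. Mean and sum values are of normalised read counts. One listed gene is not reported here.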

Additional observations from a re-analysis of the deposited data

How the results depend on the processing

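For DSS against water, 0 genes passed in the fit of 6 libraries and with edgeR on recovered reads (smallest adjusted p = 0.0576 and 0.0528), 3064 in the fit of 4 libraries and 2993 with edgeR on those 4. DESeq2 called 2357. For DSS plus montmorillonite DESeq2 called 343 against water and 638 against DSS, where limma and edgeR called 0 in fits of 6 and of 4. With the replicate number as a replicate block 678 genes passed for DSS against water and 5084 in the fit of 4 libraries; the same-numbered differences between replicates correlated at 0.30, 0.08 and 0.09 between pairs of groups, so the numbers were not taken to pair the libraries. In that block fit of 4 libraries Anxa1, Sprr1a and Krt7 passed too. Leaving out 1 library gave 0 to 3085 genes for DSS against water, 0 to 978 for DSS plus montmorillonite against water and 0 to 2055 for DSS plus montmorillonite against DSS; the highest counts came with a DSS plus montmorillonite library left out, when the library that remains adds nothing to the spread. In fits of 4 libraries the counts were 288 without water replicate 1, 317 without water replicate 2 and 0 without either DSS library for DSS against water, and 285 for DSS plus montmorillonite against DSS without DSS plus montmorillonite replicate 2. In DSS against water no direction of the 7 genes changed under any alternative. With 1 library left out the log2 fold change against water in DSS plus montmorillonite ran from -0.34 to 3.12 for Clu and from -0.52 to 0.049 for Sprr2a1. Against DSS it ran from -1.60 to 0.39 for Anxa1, from -1.22 to 0.998 (0.77 without DSS plus montmorillonite replicate 1) for Sprr1a, from -3.80 to 0.72 for Msln and from -0.89 to 0.40 (0.097 without DSS plus montmorillonite replicate 1) for Krt7. With thinned reads Sprr1a stood at 0.037 in that comparison. The cause of these shifts was not tested. Depth limits Msln in water, where 2 reads were counted.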

Other observations

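Some genes often listed with the fetal-like epithelium, chosen here after their values were seen, did not pass in DSS against water. Ly6a, the stem cell antigen Sca-1, had 12997 and 13818 in DSS plus montmorillonite, 7755 and 6475 in DSS, and 10142 and 11892 in water (limma, 4 libraries, adjusted p = 0.0822; log2 fold change -0.63 in DSS against water). Its DSS values lay under both water values, and its highest values were those with montmorillonite. Il1rn, the interleukin-1 receptor antagonist, had 1666 and 1532 in DSS plus montmorillonite, 2071 and 1056 in DSS, and 1606 and 1255 in water (limma, 4 libraries, adjusted p = 0.923).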
